A study of Homo sapiens with 12 samples.

Results

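Histone H3 lysine methyltransferases write methyl groups onto the tail or core of histone H3 and so mark promoters, enhancers, transcribed gene bodies and silenced genes. Their messenger RNAs were followed here as carriers of N6-methyladenosine (m6A), the most common internal modification of messenger RNA. Rows bearing the names of 10 genes were taken from the 6 peak lists and from the authors' comparison: KMT2A, KMT2B, KMT2C, KMT2D, SETD1A, SETD1B, SETD2, NSD1, EZH2 and DOT1L. Peaks were listed for 9 of the 10, among 8353 genes with a peak in the series. No list holds a row named KMT2A or one of its older symbols, and KMT2A is not described further.

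BT474 is an established breast cancer line of human origin in which ERBB2 is amplified. It was compared, as sensitive cells, with BT474.TtzmR, its derivative labelled resistant; the drug is trastuzumab (Herceptin), an antibody that binds the ERBB2 receptor. Both were grown in the same serum-containing medium; the labels mention no trastuzumab in it, and they do not give how the resistant cells were derived or whether they are 1 clone. Each line gave 3 libraries of RNA fragments pulled down with an anti-m6A antibody (IP) and 3 input libraries. Only peaks of the IP libraries were used, so a difference in m6A and a difference in the amount of RNA cannot be told apart. In such bulk samples, fewer cells with a transcript and less RNA per cell cannot be told apart either. Whether replicates are separate cultures is not stated in the labels, so a permutation p reflects the spread between libraries alone, and that spread could be technical.

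The resistant lists are longer, with 30767 to 32638 rows against 26028 to 29063 in the sensitive lists, and every count of peaks below carries that difference. Of 10 genes that mark luminal ERBB2-amplified cells, 7 had a peak in all 6 libraries, among them ERBB2, KRT8, KRT18 and FOXA1. GRB7 had a peak in 3 resistant and 0 sensitive libraries, ESR1 in 1 and 0 and GATA3 in 2 and 3. Of 3 genes of other cell types, PTPRC and PECAM1 had no listed peak, while the collagen gene COL1A1 had one in all 6. A peak is not a measure of expression, and the part of these marker differences in the results below was not tested.

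m6A is deposited by the METTL3 and METTL14 complex, mostly in long internal exons and around the stop codon, and it influences how long a transcript lives and how well it is translated. The methyltransferase genes fall into groups by the lysine they act on. The KMT2 and SETD1 enzymes methylate lysine 4 of histone H3 as the catalytic subunits of COMPASS complexes, a mark of active promoters and enhancers. SETD2 and NSD1 methylate lysine 36, EZH2 is the catalytic subunit of the Polycomb repressive complex PRC2 and methylates lysine 27, and DOT1L methylates a lysine in the histone core.

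Most of these transcripts were heavily covered by m6A peaks in both lines. A peak stood in all 6 libraries for 8 of the 9 genes with any peak, against 55.9% of all such genes, and the remaining one, DOT1L, had a peak in 3 resistant libraries and 1 sensitive library. Their transcripts are long: the longest isoform listed had a median of 8195 nucleotides over the 9 genes and 3535 over all genes with a peak. Per length, a median of 22.8% of that isoform lay under a peak, averaged over the 6 libraries, against 7.23% over all genes. Averaged over the 6 libraries SETD2 had the highest share of the 9, with 37.1% ± 3.43 of its longest isoform in resistant and 24.3% ± 7.10 in sensitive libraries (SD, n = 3 each). Next came KMT2B, with 31.7% ± 2.99 and 23.3% ± 1.60, and SETD1A, with 28.5% ± 1.31 and 24.6% ± 4.37 (SD, n = 3 each). In sensitive libraries alone the mean of SETD1A lay above those of SETD2 and KMT2B, by less than the SD of SETD1A. NSD1 had 26.1% ± 1.82 and 21.6% ± 3.85, EZH2 25.0% ± 1.14 and 20.5% ± 3.01, and SETD1B 24.8% ± 1.86 and 16.0% ± 5.12 (SD, n = 3 each). Neighbours in this order from SETD2 to SETD1B were not cleanly ordered: set side by side within each library, the higher gene led in 4 or 5 of the 6. KMT2D, the longest transcript at 19419 nucleotides, had 20.6% ± 2.34 in resistant and 11.4% ± 3.03 in sensitive libraries, and KMT2C 12.4% ± 1.41 and 7.96% ± 3.27 (SD, n = 3 each). DOT1L stood lowest, at 4.20% ± 0.61 and 0.68% ± 1.17 (SD, n = 3 each). SETD1B stood above KMT2D, KMT2D above KMT2C and KMT2C above DOT1L in 6 of 6 libraries.

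**Figure D1:**
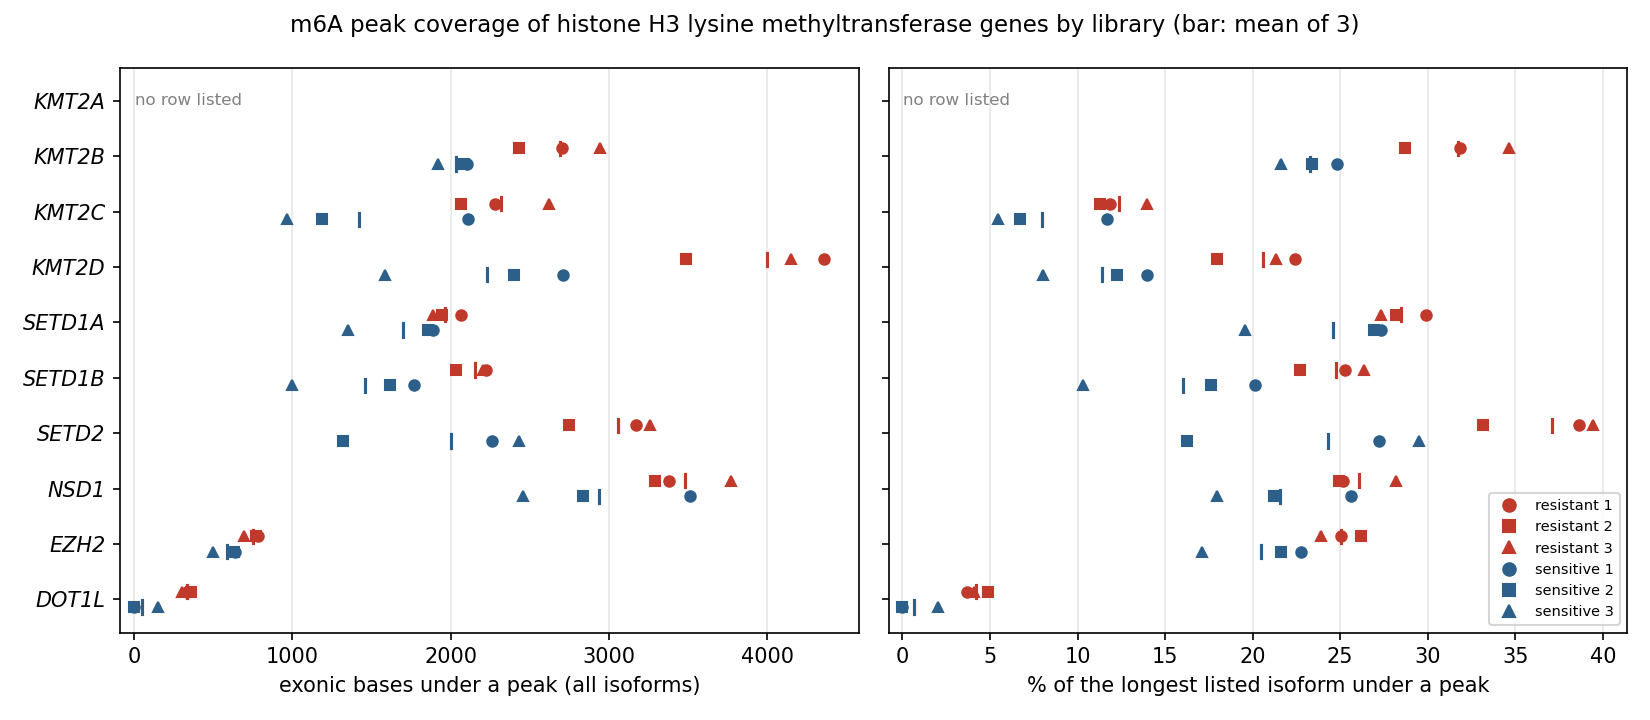
Exonic bases under a listed m6A peak (left, all isoforms) and the share of the longest listed isoform under a peak (right, in percent) for each gene and IP library; points are libraries, coloured by line and shaped by replicate, and bars are means of 3. All 3 resistant libraries lie above all 3 sensitive ones for KMT2B, KMT2D, SETD1B, SETD2, EZH2 and DOT1L in both panels, and the lines overlap or meet for KMT2C, SETD1A and NSD1.

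The m6A of these genes lay mostly within the coding sequence in both lines. Rows wholly within coding sequence made up 83.5% ± 0.842 of their peaks in resistant and 89.4% ± 2.19 in sensitive libraries (SD, n = 3 each), while the share over all genes lay between 45.5% and 46.4% in the 6 lists. Rows wholly within the 3′ UTR made up 9.92% ± 0.215 and 4.57% ± 1.39 (SD, n = 3 each), against 27.5% to 28.8% over all genes. The share in the 3′ UTR was higher in every resistant library than in any sensitive one, with 9.68% to 10.1% against 2.97% to 5.43%. Only 1 row touched a 5′ UTR, a SETD2 peak of resistant replicate 3. Isoforms repeat a stretch of RNA in several rows, which weights genes with many isoforms. How much of each transcript is coding sequence was not taken into account. Transcript make-up and m6A placement therefore cannot be told apart in the comparison with all genes.

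Resistant libraries had more bases under a peak for each of the 9 genes on average. For 6 of the 9 every resistant library stood above every sensitive library, and for 0 every one stood below, where 17.9% and 4.47% of all genes did so. Genes with much m6A separate more often: of the genes with a peak in all 6 libraries 22.3% were separated upward, as were 5 of the 8 methyltransferase genes among them. Of genes with a mean of at least 1000 bases, 33.1% were separated upward, as were 4 of the 7 members among them. With lists shortened to the same number of peaks, 6 genes were still separated upward, and 15.5% of all genes were. The ratio of resistant to sensitive mean bases had a median of 1.47 over the 9 genes and 1.11 over the 7399 genes with a peak in a sensitive library. In the exact permutation test, 3 against 3 libraries cannot give a p below 0.1. Every adjusted p over all genes was at least 0.447, so 0 genes passed, and at an unadjusted p below 0.05 the count is also 0.

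Among the lysine 4 enzymes, KMT2D had the largest difference in bases. KMT2D encodes a catalytic subunit that marks enhancers and is often mutated in cancer. Bases under a KMT2D peak numbered 4359, 3487 and 4148 in resistant replicates 1, 2 and 3, and 2708, 2398 and 1586 in sensitive replicates 1, 2 and 3. The lowest resistant library stood above the highest sensitive one, and the means were 3998 ± 455 and 2231 ± 579 (SD, n = 3 each; exact permutation test, p = 0.1, adjusted p = 0.447). KMT2B, a paralogue acting mainly at promoters, had 2706, 2431 and 2943 bases in the resistant and 2106, 2082 and 1921 in the sensitive replicates. Again the groups did not overlap, with means of 2693 ± 256 and 2036 ± 101 (SD, n = 3 each; exact permutation test, p = 0.1, adjusted p = 0.447). KMT2C, the enzyme most closely related to KMT2D, had 2278, 2064 and 2618 bases in resistant and 2112, 1191 and 968 in sensitive replicates. Here sensitive replicate 1 lay above resistant replicate 2, and the lines overlapped (exact permutation test, p = 0.2, adjusted p = 0.625). Part of the KMT2C sequence has near-identical copies elsewhere in the genome, and how reads were shared between them is not given, so its regions are uncertain.

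SETD1A and SETD1B, the paired COMPASS enzymes that place most lysine 4 trimethylation, differed from each other in how far the lines separated. SETD1B had 2222, 2032 and 2204 bases in resistant and 1767, 1617 and 997 in sensitive replicates, with no overlap (exact permutation test, p = 0.1, adjusted p = 0.447). SETD1A had 2065, 1947 and 1887 bases in resistant and 1887, 1860 and 1351 in sensitive replicates. The SETD1A groups met at 1887, with sensitive replicate 3 the lowest library (exact permutation test, p = 0.2, adjusted p = 0.625). The difference between the SETD1A and SETD1B differences was not tested.

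Of the lysine 36 enzymes, SETD2, which places the trimethyl mark on transcribed gene bodies, had 3172, 2749 and 3258 bases in resistant and 2263, 1321 and 2430 in sensitive replicates, without overlap (exact permutation test, p = 0.1, adjusted p = 0.447). NSD1, which places the dimethyl mark, had 3379, 3293 and 3768 bases in resistant and 3510, 2837 and 2455 in sensitive replicates. NSD1 overlapped between the lines, since sensitive replicate 1 exceeded 2 of the resistant libraries (exact permutation test, p = 0.3, adjusted p = 0.747). EZH2 had far fewer bases on its short transcript: 785, 772 and 696 in resistant and 638, 634 and 498 in sensitive replicates, again without overlap (exact permutation test, p = 0.1, adjusted p = 0.447). DOT1L had 336, 362 and 306 bases in resistant replicates, no peak in sensitive replicates 1 and 2, and 151 bases in sensitive replicate 3 (exact permutation test, p = 0.1, adjusted p = 0.447). Its peaks were merged over the lists into regions, numbered from the 5′ end. Resistant replicate 1 held regions 2 and 5, replicate 2 regions 1 and 3, and replicate 3 regions 4 and 5. No DOT1L region thus had a peak in all 3 resistant libraries, and no DOT1L peak in any list had a p below 1e-05.

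Merged over the 6 lists, the peaks of the 9 genes formed 66 regions, joined where peaks shared at least 1 exonic base. Of these, 27 had a peak in all 6 libraries, or 40.9% against 33.4% of all 17465 regions, and 17 had a peak in a single library. More resistant than sensitive libraries held a peak in 27 regions, fewer in 7, and as many in 32; over all regions these shares were 38.0%, 20.2% and 41.7%, against 40.9%, 10.6% and 48.5% here. When a region was assigned to a line if 2 or more of its 3 libraries held a peak, resistant cells had 45 and sensitive cells 37, with 36 in both. Thus 9 regions, or 20.0% of the resistant ones, were not among the sensitive ones, against 24.0% over all genes. In the other direction 1 region, in SETD1B, or 2.70% of the sensitive ones, was not among the resistant ones, against 12.3% over all genes. The count of 9 came to 5 without resistant replicate 1 or 3, and to 18 and 14 without sensitive replicate 1 and 2, where both remaining libraries had to hold the peak.

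**Figure D2:**
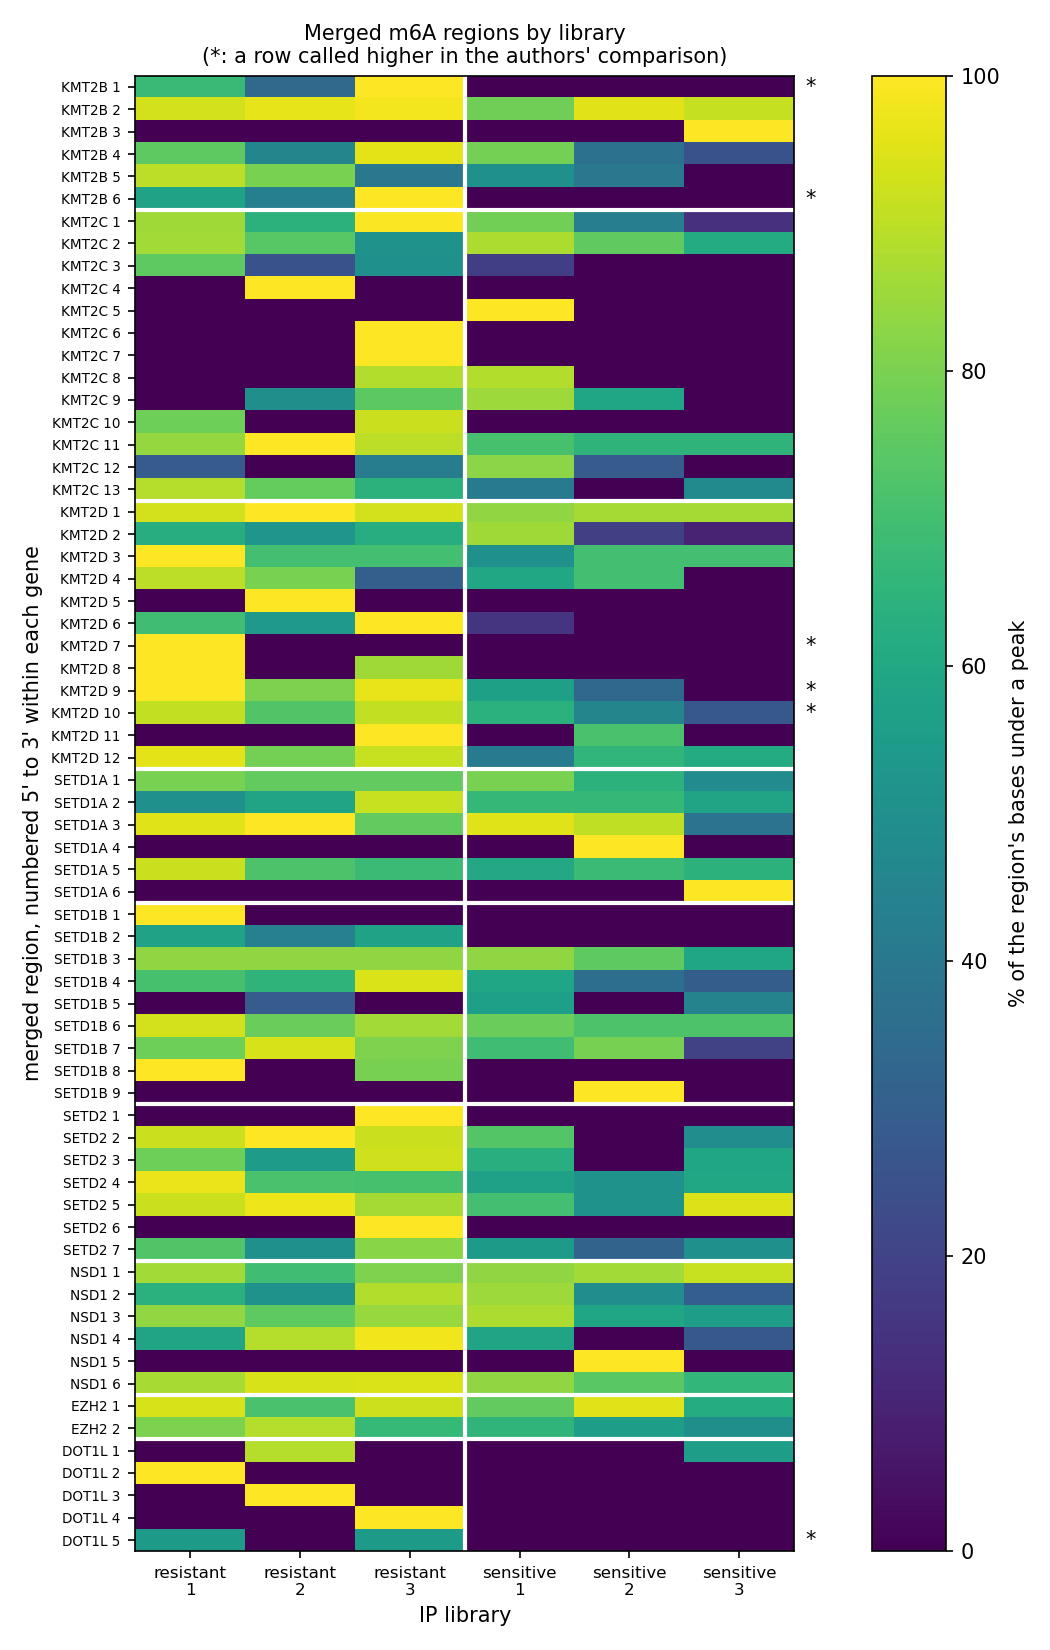
The 66 merged m6A regions (rows, numbered 5′ to 3′ within each gene) in the 6 IP libraries (columns); colour gives the percent of a region's bases under a listed peak in that library, and an asterisk marks regions overlapped by a row called higher in the authors' comparison. Of the 66 regions, 27 are coloured in all 6 columns, and KMT2B regions 1 and 6 and SETD1B region 2 in the 3 resistant columns only.

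A peak in 3 resistant and 0 sensitive libraries was found for 3 regions, and the opposite for 0, against 2.15% and 0.699% of all regions. These were the first and the last KMT2B regions and the second SETD1B region, counted from the 5′ end. The first KMT2B region lay in coding sequence at chromosome 19, 36209099 to 36209280, on the plus strand, and covered 123, 63 and 182 bases in resistant replicates 1, 2 and 3. The last KMT2B region lay in the 3′ UTR at chromosome 19, 36229540 to 36229749, and covered 121, 91 and 210 bases. The SETD1B region lay in coding sequence at chromosome 12, 122248012 to 122248224, and covered 123, 93 and 123 bases. All 3 regions were short beside the blocks shared by the lines. Fold enrichments in resistant replicates 1, 2 and 3 were 17.9, 7.44 and 8.7 in the first KMT2B region and 3.33, 2.79 and 2.92 in the last. The SETD1B region had 3.03, 2.9 and 3.09. Medians over all rows of these lists were 3.67, 3.49 and 3.55, above the values of the last KMT2B and the SETD1B region. In the authors' comparison this SETD1B region shares its rows with regions 1, 3 and 4, and none was called. The build behind these positions is not given in the sources used here. Only 7 of 66 comparison rows of these genes lay within the bounds of their gene in GRCh38.p14. The positions are therefore not to be read as those of that build.

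The 4 regions of over 1000 exonic bases lay in KMT2B, NSD1 and SETD2. KMT2B region 2, in coding sequence of the longest isoform (chromosome 19, 36210783 to 36212554), formed 1 stretch of 1772 bases over all libraries, of which 1385 to 1742 were under a peak in each. NSD1 region 6, at the end of the coding sequence and running into the 3′ UTR (chromosome 5, 176721058 to 176722777), spanned 1720 bases, with 1496, 1616 and 1623 covered in resistant and 1433, 1277 and 1141 in sensitive replicates. In SETD2, region 5 (chromosome 3, 47098731 to 47125835) held 1109 exonic bases in coding sequence and region 4 (chromosome 3, 47158132 to 47162606) held 1048. These blocks were present in all 6 libraries, and the NSD1 block and SETD2 region 4 were wider in each resistant library than in any sensitive one, while the lines overlapped in KMT2B region 2 and SETD2 region 5. SETD2 region 4 had 1018, 749 and 742 bases under a peak in resistant and 599, 540 and 629 in sensitive replicates.

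Fold enrichment of a peak over its background, the authors' own value, reached its highest values in SETD1B and SETD1A. The highest fold of a gene in each list lay between 11.2 and 42.5 for SETD1B, and for SETD1A between 6.27 and 39.6. The highest SETD1B peak lay in region 4 (chromosome 12, 122252060 to 122252573) and the highest SETD1A peak in region 5 (chromosome 16, 30990874 to 30991911), both coding, in every list except resistant replicate 3. KMT2D reached 6.88 to 14.0, KMT2B 6.78 to 17.9, NSD1 7.85 to 13.1, SETD2 4.31 to 10.8 and KMT2C 4.16 to 6.16. EZH2 stood lowest of the genes present in all lists, at 2.64 to 3.43, between the 11.8 and 25.8 percentiles of the gene maxima of a list. High folds recur exactly across genes: in resistant replicate 1, the value 17.9 of KMT2B region 1 was also that of DOT1L region 5 and was shared by 133 genes. The cause of such repeats was not tested.

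In the authors' comparison of the lines, 3 of the 9 methyltransferase genes had a row called higher in resistant cells and 0 had one called lower. Over all 5553 genes compared, 14.2% had a row called higher and 2.76% one called lower. With the deposited p adjusted over all rows, 2 of the 9 genes were called higher, against 8.84% of all genes. A call means a deposited p below 0.05 with a fold of at least 1.5, or of at most 0.667 for lower. Of the 66 rows of these genes in the authors' deposited table, 9 were called higher, or 13.6% against 9.88% of all 17301 rows, and 0 were called lower, against 1.75%. A fold above 1 was found in 61 of the 66 rows of the authors' deposited table, or 92.4% against 75.0% of all rows. Isoforms repeat stretches among these rows. Merged where they shared a base, the 66 rows formed 30 stretches, of which 6 held a row called higher. The like share over all genes is not given here. The median fold of the 66 rows in the authors' deposited table was 1.26, close to the median of 1.25 over the whole table (log2 0.34 and 0.32). The whole table is thus shifted upward, and the typical row of the 9 genes sits at that shift. A deposited p below 0.05 was reached by 63.6% of the rows, against 45.2% of all rows in the authors' deposited table.

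**Figure D3:**
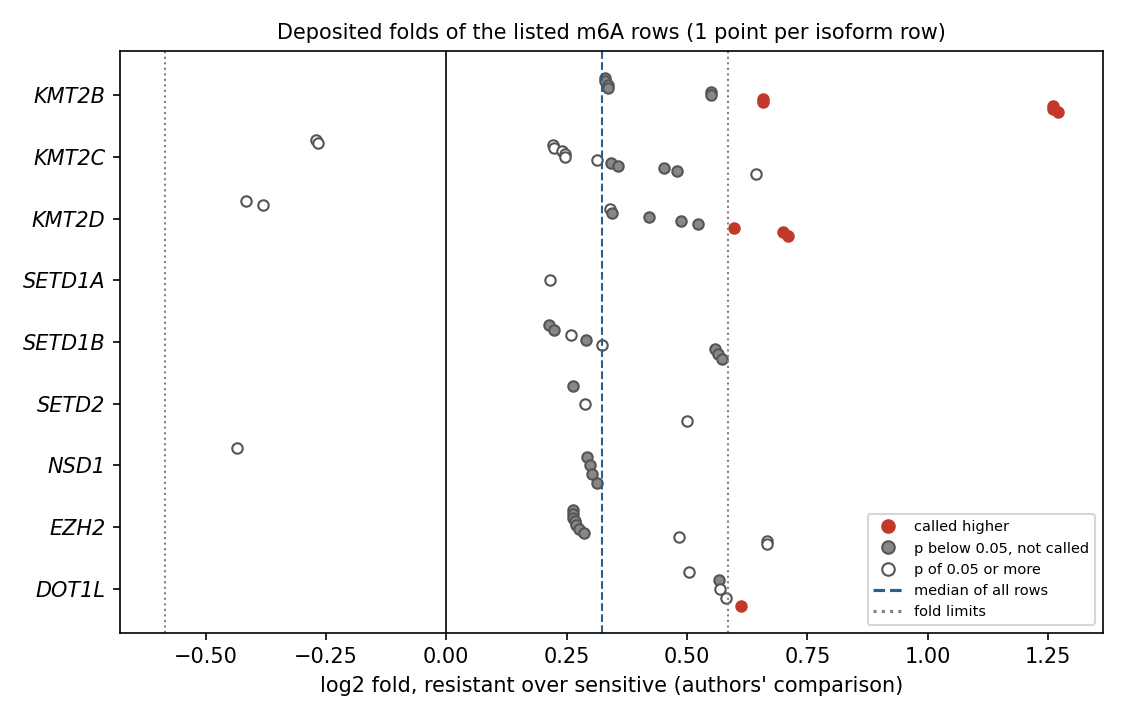
Log2 fold of resistant over sensitive cells for each row of the authors' deposited table, by gene, 1 point per isoform row; filled red points were called higher, grey points had a deposited p below 0.05 without a call, and open points a larger p. The dashed line is the median of all rows (0.32 on the log2 scale) and dotted lines are the fold limits. KMT2B, KMT2D and DOT1L hold the red points.

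KMT2B had the largest folds, and all 11 of its rows lay above the table median in the authors' deposited table. Its 5′-most row in the authors' deposited table spans coding sequence of chromosome 19 from 36208981 to 36210397, with a fold of 2.39 for 2 isoforms (deposited p = 0.0186, adjusted over all rows 0.0582) and 2.41 for another. That row overlaps the first KMT2B region, with peaks in 3 resistant and 0 sensitive libraries. In the 3′ UTR (chromosome 19, 36229510 to 36229779), the fold in the authors' deposited table was 1.58 (deposited p = 0.0102, adjusted 0.0395), again with peaks in 3 resistant and 0 sensitive libraries. The broad shared block of KMT2B stood at 1.26 in the authors' deposited table (deposited p = 5.89e-05), at the median of the table and not called. After division of all folds by the table median, the 3 isoform rows at the 5′ end were still called and the 3′ UTR rows were not. After adjustment of the deposited p, the 3′ UTR rows were still called and the 5′ rows were not.

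KMT2D had 3 rows called higher among 10, all in coding sequence and on the minus strand of chromosome 12. From 49420795 to 49421095 the authors' deposited table gives 1.64 (deposited p = 0.000977), with peaks in 3 resistant and 3 sensitive libraries. The authors' deposited table gives 1.51 from 49424711 to 49425781 (deposited p = 1.86e-05), where peaks stood in 3 and 2. The last, from 49431819 to 49432088, stood at 1.62 in the authors' deposited table (deposited p = 0.00813), above a peak of 1 resistant and 0 sensitive libraries. Bases under the peak of the row at 1.51 numbered 900, 721 and 870 in resistant and 512, 301 and 0 in sensitive replicates. The lines did not overlap there, and sensitive replicate 3 had no peak. All 3 rows passed after adjustment of the deposited p over all rows, and none after division by the table median. KMT2D rows below 1 in the authors' deposited table stood at 0.750 in the 3′ UTR and 0.768 in coding sequence (deposited p = 0.178 and 0.133), and neither overlapped a listed peak.

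**Figure D4:**
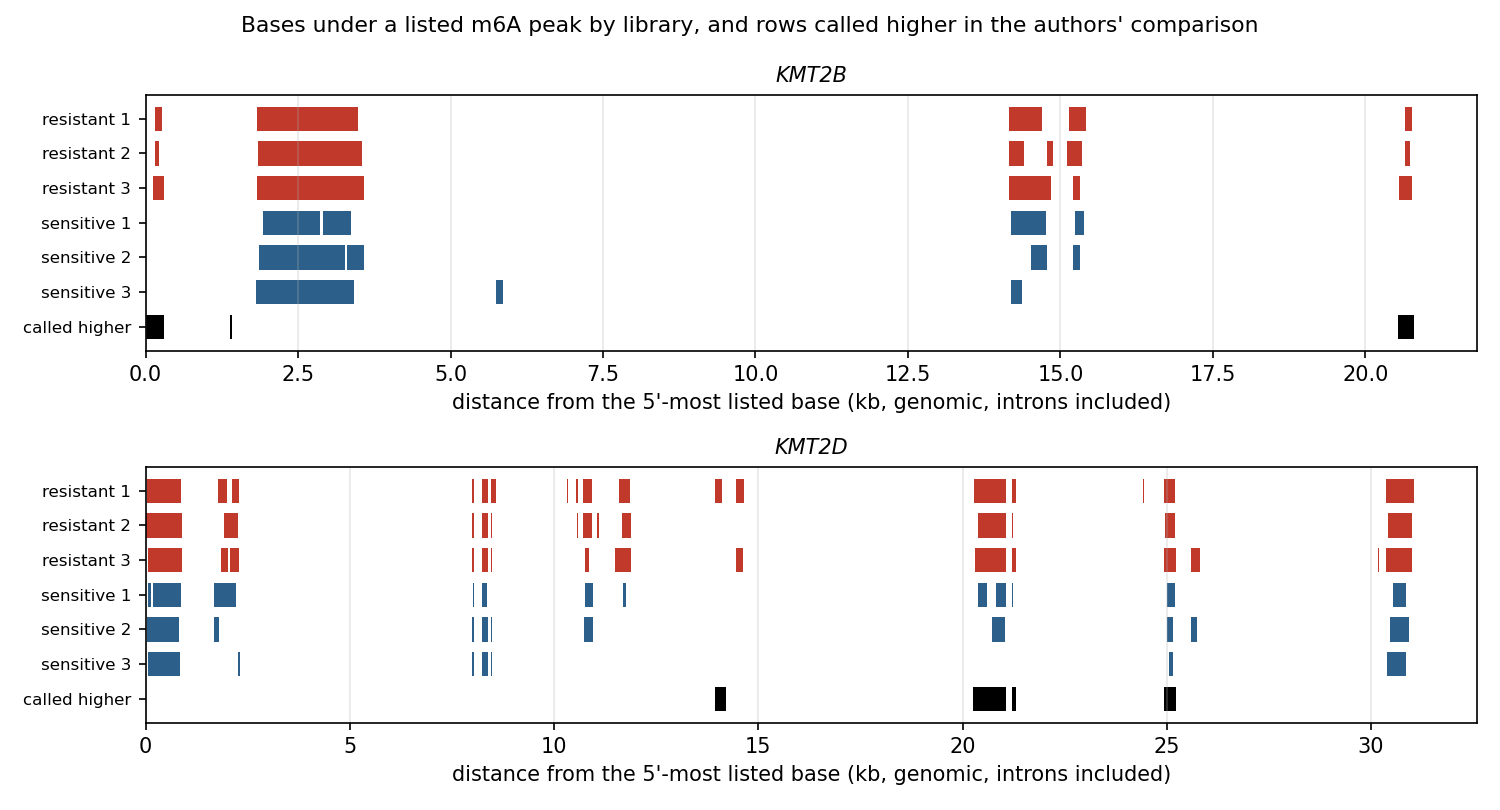
Bases under a listed m6A peak along KMT2B (top) and KMT2D (bottom) in each IP library, with the rows called higher in the authors' comparison in black; the horizontal axis is the genomic distance in kb from the 5′-most listed base, introns included. In KMT2B the called rows at both ends hold peaks of the 3 resistant libraries and of 0 sensitive ones; in KMT2D the middle and right called rows hold peaks of both lines, the left a peak of resistant replicate 1 alone.

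DOT1L was called in 1 of its 5 rows. The called row, with a fold of 1.53 in the authors' deposited table (deposited p = 0.0162, adjusted 0.0535), lies in the 3′ UTR on chromosome 19, from 2229883 to 2230333. A row of another isoform that covers nearly all of this stretch stood at 1.48 in the authors' deposited table (deposited p = 0.00741), just under the limit. The 5 DOT1L rows lay between 1.42 and 1.53 in the authors' deposited table, all above the table median. Peaks under the called row stood in resistant replicates 1 and 3 and in no sensitive library. PLEKHJ1, on the opposite strand, has a peak in resistant replicate 1 and a row of the comparison that share 91 and 302 bases with this DOT1L region. The library kit keeps strand, but how strand entered the peak calls is not given.

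SETD1B came closest to a call without one. In the authors' deposited table its 3 rows over the 5′ coding block (chromosome 12, 122247683 to 122252632) had folds of 1.47 to 1.49, the highest with a deposited p of 1.78e-05. The remaining SETD1B rows stood between 1.16 and 1.25 in the authors' deposited table. NSD1 had 4 rows over the end of its coding sequence at 1.23 to 1.24 in the authors' deposited table, with deposited p from 6.61e-05 to 0.000174. A further NSD1 row of 59 exonic bases stood at 0.740 in the authors' deposited table (deposited p = 0.190). EZH2 had 7 coding rows at 1.20 to 1.22 in the authors' deposited table (deposited p from 0.00204 to 0.00398), all isoforms of 1 stretch; EZH2 has a pseudogene copy, and how its reads were assigned is not given. SETD2 ranged from 1.20 to 1.41 and SETD1A stood at 1.16 in the authors' deposited table. KMT2C ranged from 0.829 to 1.56 in the authors' deposited table, with its highest row, of 91 bases, at a deposited p of 0.169. Rows of NSD1, EZH2 and SETD1A at these folds lie at or below the table median of 1.25, except for the EZH2 rows of 1.40 and 1.59.

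Of the 66 regions, 31 have no overlapping row in the authors' deposited table, 12 of them with a peak in all 6 libraries. They include the first NSD1 region (chromosome 5, 176562450 to 176562989), whose highest folds per list ran from 5.93 to 13.1, and SETD1A regions 1, 2 and 3. The comparison therefore covers part of the m6A of these genes. Conversely, 6 rows of the authors' deposited table overlapped no listed peak of their gene, among them a 5′ UTR row of EZH2 listed for 2 isoforms at 1.59 (deposited p = 0.224).

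Genes that work with or against these enzymes were compared with the same tables. Of 12 other histone lysine methyltransferase genes compared, 0 had a row called higher and 0 lower, against 14.2% and 2.76% of all genes. Of 19 genes for partner subunits of COMPASS, PRC2 and DOT1L complexes, 3 had a row called higher, 1 lower and 15 neither, or 15.8% higher against 14.2% of all genes. Of 9 histone H3 lysine demethylase genes, 1 was called higher, or 11.1% against the same 14.2%, and 0 lower. MLLT1, a reader protein of the super elongation complex that binds DOT1L, had a fold of 2.04 (deposited p = 0.000331) over the 5′ UTR and coding sequence in the authors' deposited table. AFF1, a scaffold of that elongation complex, had 1.54 in the authors' deposited table (deposited p = 0.00200), with 4 of its 7 rows called. KDM6A, a lysine 27 demethylase that is also a subunit of the KMT2C and KMT2D complexes and stands on both lists, had 2.27 in the authors' deposited table (deposited p = 0.0123), with all 4 of its rows called. MLLT6 had 1 of 9 rows called lower, in the 3′ UTR at 0.633 in the authors' deposited table (deposited p = 0.0269), with a median of 1.09 over its rows. Benjamini-Hochberg adjustment of the deposited p over all rows gave 0.0741 for this MLLT6 row. It gave 0.00326 for MLLT1, 0.0123 for AFF1 and 0.0448 for KDM6A. The median folds of the 3 lists in the authors' deposited table were 1.20, 1.24 and 1.25, near that of the whole table. In bases under a peak, 3 of 16, 9 of 24 and 6 of 12 genes of these lists had every resistant library above every sensitive one, or 18.8%, 37.5% and 50.0% against 17.9% of all genes with a peak. The reverse was found for 0 genes of each list, against 4.47% of all genes. Of these genes, 13 of 16, 17 of 24 and 9 of 12 had a peak in all 6 libraries. Among all genes with a peak in all 6 libraries, 22.3% were separated upward, as were 33.1% of genes with a mean of at least 1000 bases.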

How the data were processed

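m6A peaks of 6 immunoprecipitated RNA libraries, 3 from resistant and 3 from sensitive cells, were read from the lists the authors deposited. Sample titles gave the groups and replicates. The submitters' processing notes name HISAT2; which peak caller and which genome build were used, and how replicates were combined, is not given in the sources used here. Each deposited peak has a p-value and a fold enrichment, a ratio, per the file headers. The comparison of the lines holds a linear fold of resistant over sensitive and a p-value per listed row, both deposited by the authors. Read depth is unknown. One row stands for 1 isoform, so rows of a gene that share at least 1 exonic base were merged into a region. Exonic bases under a peak were compared per gene between the lines with an exact two-sided permutation test over libraries, with Benjamini-Hochberg adjustment over all 8353 genes (Python 3.11.15, numpy 2.4.6, pandas 2.3.3), in code tested on simulated data. A row counts as called when its fold is 1.5 or more, or 0.667 or less, and its deposited p is under 0.05; this rule gave exactly the rows of the deposited called tables. Members and companion lists were chosen with earlier results of these data known; all 10 members are named, and up to 4 called genes of each companion list by smallest p. Positions are counted from 1. The companion lists hold 28, 30 and 20 symbols, older and current names included. Members matched current RefSeq symbols of GRCh38.p14, used for names only: 7 of 66 member rows lay within the bounds of their gene there.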

Additional observations from a re-analysis of the deposited data

How the results depend on the processing

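Under a fold enrichment of at least 5, 5 genes kept a peak in all 6 libraries, where 8 had one without that limit. The 6 genes with every resistant library above every sensitive one came to 4 with peaks of p below 1e-05 and to 4 with a fold enrichment of at least 5. They came to 2 when merged regions were counted in place of bases. With 1 library left out they came to between 6 and 9. That count could not fall below 6, since removing a library cannot undo a separation. With same-numbered libraries paired as a replicate block, 8 genes were higher in resistant cells in every pair (exact sign-flip permutation test, smallest possible p = 0.25). This count could not fall below 6 either, since a separated gene is higher in every pair. Shares of all genes under these settings were not computed, so the member counts cannot be set against them. Deviations of same-numbered libraries from the mean of their line correlated at -0.031, -0.066 and -0.084. These values cannot show whether same-numbered libraries were prepared together. The bases of SETD1A turned to a difference of -141 at a fold enrichment of at least 5, and the number of regions to -1.33 for both SETD1A and NSD1; the cause was not tested. Genes called higher numbered 3, against 14.2% of all genes. After division by the table median 1 gene was called, against 5.26%, and with a fold limit of 2 also 1, against 4.09%. Called rows numbered 9, against 1709 in the whole table, and 5 after adjustment over all rows, against 1132. They numbered 3 after division by the table median, against 492, and 3 with a fold limit of 2, against 349. The median log2 fold of 0.34 came to 0.013 after that division. Resistant regions without a sensitive one numbered 9, 18 with a peak in at least 1 library, and 5 to 18 with 1 library left out. Sensitive regions without a resistant one numbered 1, 0 with a peak in all 3 libraries, 6 with a peak in at least 1, and 0 to 3 with 1 library left out. Read depth is unknown, so what it limits cannot be given. The longest-isoform setting, added after seeing the data, gave 6 genes, and the share of all genes under it was not computed.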
